A study of Mus musculus with 12 samples.

Results

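Transcripts of 10 macrophage surface and identity genes (Cd68, Adgre1, Cd84, Mrc1, Cd163, Ms4a4a, Cd14, Trem2, Fcgr1 and Fcgr4) were followed through 12 samples of mouse mammary tumour in 5 groups. They were taken by name from the 750 endogenous genes of the nCounter Mouse PanCancer IO360 panel, which counts fluorescent barcodes bound to chosen targets. The labels' protocols name cDNA synthesis and multiplex target enrichment before counting. All 10 passed the filter on low counts that left 615 of the 750 genes for testing. The tumours were from the mammary gland of MMTV-PyMT mice, in which the promoter of the mouse mammary tumour virus drives the polyoma middle T oncogene in the mammary epithelium. Every group received PTX, so no untreated tumour was measured. The groups were PTX alone (2 samples), PLX+PTX (2 samples), PLX+PTX+aPD-1 marked R in the titles (3 samples, called R here), the same treatment marked NR (3 samples, called NR) and PLX+PTX+aPD-L1 (2 samples, called aPD-L1). The title describes a study that combined inhibition of the receptor CSF1R with chemotherapy and antibody blockade of PD-1, and asked how this acts on the immune cells of the tumour. The labels used here do not expand R and NR and give no dose, treatment time, strain or age.

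CSF1R is the receptor tyrosine kinase through which colony-stimulating factor CSF1 and interleukin IL-34 sustain the survival and growth of most tissue macrophages, and its inhibitors can deplete these cells or change their state. Macrophages in mammary tumours are told from other cells by lysosomal and adhesion proteins, by scavenger receptors, by lipid sensors and by receptors for the Fc part of IgG, each with its own regulation. A marker transcript measured in whole tumour tissue therefore carries both the number of cells and the RNA in each cell, and these cannot be told apart here.

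Endogenous counts summed to between 98741 and 531086 per library. In 3 libraries the sum was lowest: R replicate 2 (128083), aPD-L1 replicate 1 (141021) and aPD-L1 replicate 2 (98741). The other 9 libraries held at least 298726. Counts are given after division by a library factor from the 20 housekeeping probes (0.319 to 1.66), called scaled counts. The detection limit of a library, the mean plus 2 SD of its 8 negative-control probes, was between 14.5 and 37.2 scaled counts in the 9 deeper libraries and between 46.8 and 71.1 in the 3 shallow ones. Of the 10 markers, 3 to 6 were above this limit in the shallow libraries and 8 to 10 in the others, so many values of R replicate 2 and of the aPD-L1 group lie at background. The scaled negative-control mean was 13.5 ± 2.59 in PTX and 16.1 ± 2.64 in PLX+PTX (SD, n = 2 each), 22.7 ± 2.85 in R and 12.9 ± 2.48 in NR (n = 3 each), and 29.5 ± 8.15 in aPD-L1 (n = 2). The epithelial marker Epcam was above the limit in all 12 libraries, which fits the mammary gland of the labels. Whether the replicates of a group were different mice is not stated in the labels, so the p-values cover the spread among these samples only, and part of it may be technical.

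No marker passed the test in any of the 7 comparisons made with edgeR's quasi-likelihood test at an adjusted p under 0.05. The lowest adjusted p-values of markers were those of Cd163 for aPD-L1 over R and NR (0.178) and of Ms4a4a for the 4 PLX groups over PTX (0.183). Ms4a4a was lower in all 10 PLX-treated libraries than in either PTX library, as were 14 of the 615 genes (2.28 percent). The margin was small (83.2 against 84.8), and its values in both aPD-L1 libraries and in R replicate 2 were under the detection limit. Of all 615 genes, 0 percent were called for PLX+PTX against PTX, for R against NR, for R and NR each against PLX+PTX, and for the mean of the 4 PLX groups against PTX. The share was 2.28 percent for aPD-L1 against PLX+PTX and 5.69 percent for aPD-L1 against the average of the R and NR groups. At an unadjusted p under 0.05 the 7 comparisons held 0, 0, 0, 1, 0, 1 and 3 of the 10 markers and 12, 42, 15, 23, 99, 110 and 46 of all genes, in the order PLX+PTX over PTX, R over NR, R over PLX+PTX, NR over PLX+PTX, aPD-L1 over PLX+PTX, aPD-L1 over the average of R and NR, and the 4 PLX groups over PTX. DESeq2 also called 0 markers in each comparison. Several comparisons share samples: the PTX libraries enter 2 of them and the PLX+PTX libraries enter 5.

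**Figure D1:**
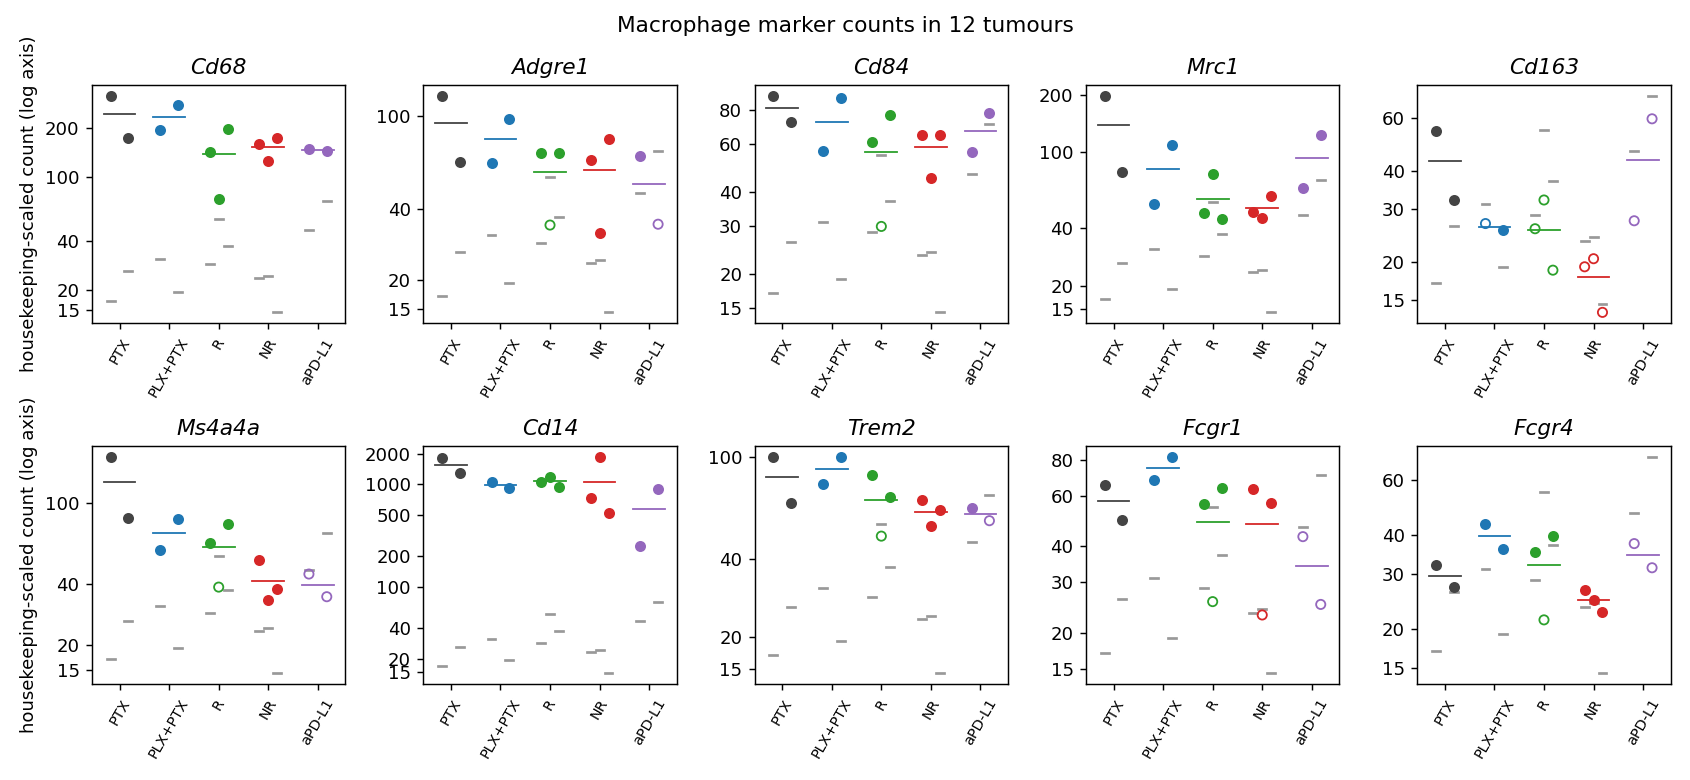
Scaled counts of the 10 markers in each library (points, vertical log axis), with group means as coloured lines and each library's detection limit as a grey tick. Open points lie at or under the limit; R, NR and aPD-L1 are the groups given a PD-1 or PD-L1 antibody on top of PLX+PTX. PTX replicate 1 is the highest library in 6 panels. Ms4a4a is the panel in which all 10 PLX libraries lie under both PTX libraries. The margin is small (83.2 against 84.8), and 2.28 percent of all 615 genes are so placed.

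Cd68, a heavily glycosylated lysosomal protein used as a general macrophage marker, was above the detection limit in all 12 libraries. Its scaled counts were 316 and 172 in PTX, 193 and 276 in PLX+PTX, 141, 72.8 and 197 in R, 158, 126 and 173 in NR, and 147 and 144 in aPD-L1. The PTX and PLX+PTX ranges overlapped, with means of 244 ± 102 and 234 ± 58.9 (SD, n = 2 each). Every NR and aPD-L1 library lay under both PLX+PTX libraries, while R replicate 3 reached into the PLX+PTX range. Against PLX+PTX, Cd68 in R had a log2 fold change of -0.76 (SE 0.39, adjusted p 0.979). The 95% interval, -1.61 to 0.09, spans a fall to 0.328 of the PLX+PTX level and a small rise.

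Adgre1, the adhesion G-protein-coupled receptor that is the most used mouse macrophage antigen, had scaled counts of 123 and 64.0 in PTX, 62.9 and 97.4 in PLX+PTX, 69.7, 34.2 and 69.9 in R, 65.2, 31.6 and 80.2 in NR, and 67.8 and 34.5 in aPD-L1. Each group of 2 or 3 libraries overlapped each other group. The values of R replicate 2 and aPD-L1 replicate 2 were under the detection limit. Cd84, a homophilic adhesion receptor of the SLAM family, was 90.6 and 72.8 in PTX, 56.7 and 88.9 in PLX+PTX, 61.1, 29.96 and 77.3 in R, 65.2, 45.3 and 65.1 in NR, and 56.2 and 78.5 in aPD-L1. The NR libraries lay under both PTX libraries, a placement whose share over all genes was not computed. All other pairs of groups overlapped. Group means lay between 56.1 ± 24.0 in R (SD, n = 3) and 81.7 ± 12.6 in PTX (SD, n = 2). For the mean of the 4 PLX groups against PTX the fitted log2 differences were -0.59 for Adgre1 and -0.37 for Cd84, and neither passed the test (adjusted p 0.833 and 0.883). Other SLAM family genes were mostly near background: of 5 on the panel, 3 were tested, 1 (Cd48) was detected in at least 6 libraries, and 0 were called in any comparison.

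Mrc1, the mannose receptor that takes up glycoproteins in tissue-resident and alternatively activated macrophages, was 197 and 79.2 in PTX, 53.6 and 109 in PLX+PTX, 47.7, 77 and 44.9 in R, 48.7, 45.3 and 59.0 in NR, and 64.9 and 122 in aPD-L1. PTX replicate 1 stood highest, and PTX replicate 2 lay under PLX+PTX replicate 2 and aPD-L1 replicate 2. The R and NR libraries all lay under both PTX libraries, though R replicate 2 at 77 came close to PTX replicate 2 at 79.2. The share of all genes so placed was not computed. For the mean of the 4 PLX groups against PTX, the log2 fold change was -1.03 (SE 0.36, adjusted p 0.465).

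Cd163, the scavenger receptor for haemoglobin bound to haptoglobin, was measured close to background: 3 of 12 libraries were above the limit, both of PTX and 1 of PLX+PTX. Its scaled counts were 54.4 and 32 in PTX, 26.8 and 25.5 in PLX+PTX, 25.8, 32.1 and 18.8 in R, 19.3, 20.5 and 13.6 in NR, and 27.4 and 59.6 in aPD-L1. In PLX+PTX both libraries lay under both PTX libraries. The log2 fold change was -0.73 (SE 0.41, adjusted p 0.996) for PLX+PTX against PTX and -0.72 (SE 0.30, adjusted p 0.537) for the mean of the 4 PLX groups against PTX. The high value of 59.6 in aPD-L1 replicate 2 lay under that library's own limit of 71.1.

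Ms4a4a encodes a tetraspan membrane protein found on macrophages, and its probe was designed on a predicted RefSeq transcript. Scaled counts were 170 and 84.8 in PTX, 58.8 and 83.2 in PLX+PTX, 64.0, 38.5 and 79.3 in R, 52.3, 33.3 and 37.8 in NR, and 44.7 and 34.5 in aPD-L1. The group means were 128 ± 60.5 in PTX (SD, n = 2), 71.0 ± 17.3 in PLX+PTX (n = 2), 60.6 ± 20.6 in R (n = 3), 41.2 ± 9.93 in NR (n = 3) and 39.6 ± 7.19 in aPD-L1 (n = 2). All 10 PLX libraries lay under both PTX libraries, which held for 1 of the 10 markers and for 14 of the 615 genes (2.28 percent). The margin was small, since PTX replicate 2 at 84.8 was just above PLX+PTX replicate 2 at 83.2, and the values of both aPD-L1 libraries and of R replicate 2 were under their detection limit. For the mean of the 4 PLX groups against PTX the log2 fold change was -1.30 (SE 0.31, 95% interval -1.97 to -0.62), that is 0.406 of the PTX level, with an unadjusted p of 0.0012 and an adjusted p of 0.183. For PLX+PTX alone against PTX it was -0.85 (SE 0.43, adjusted p 0.996). Without PTX replicate 1 the value for the 4 PLX groups was -0.71 (unadjusted p 0.105), and without PTX replicate 2 it was -1.71, past the threshold (adjusted p 0.0479). Of the other MS4A genes on the panel, Ms4a6b, also known in myeloid cells, had a log2 difference of -0.63 in this comparison (adjusted p 0.833), and Ms4a1, which encodes CD20 of B cells, had one of 0.21 (adjusted p 0.982).

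Csf1r itself, the target of the inhibitor, was 347 and 144 in PTX, 145 and 212 in PLX+PTX, 160, 87.7 and 171 in R, 135, 72.6 and 123 in NR, and 121 and 138 in aPD-L1. PTX replicate 2 lay at the level of PLX+PTX replicate 1 and under 4 of the 10 PLX libraries. The log2 fold change was -0.46 (SE 0.46, adjusted p 0.996) for PLX+PTX against PTX and -0.84 (SE 0.34, adjusted p 0.503) for the 4 PLX groups together.

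Cd14, the co-receptor that hands bacterial lipopolysaccharide to TLR4 and MD-2, had scaled counts of 1806 and 1290 in PTX, 1046 and 924 in PLX+PTX, 1067, 1194 and 951 in R, 743, 1872 and 522 in NR, and 249 and 901 in aPD-L1. NR replicate 2 was the highest of the 12 libraries for Cd14, although it was the lowest for 3 other markers (Adgre1, Ms4a4a and Fcgr1). PLX+PTX lay under PTX in both libraries, and NR spanned the whole of R. Both aPD-L1 libraries lay under R, the higher at 901 against 951, and the share of all genes so placed was not computed. The fitted log2 difference for the 4 PLX groups against PTX was -0.80 (SE 0.43, adjusted p 0.807). The partner genes Tlr4, Ly96, Tlr2, Myd88 and Ticam1 were all tested and 0 of 5 were called in any comparison. Their median log2 difference from PTX over the 4 PLX groups was -0.10. Cd14 is also made by neutrophils and by epithelial cells, so genes of those cells were read beside it. The neutrophil genes Cxcr2, Ly6g and Fpr1 were above the limit in 0 of 12 libraries and Csf3r in 1. S100a8, an abundant neutrophil transcript that other cells can also make, stood at 2034 in NR replicate 2 and 3259 in R replicate 2, against 385 to 938 in the other 10 libraries. Its partner S100a9 was at 27.3 in NR replicate 2, just above that library's limit of 24.2. In R replicate 2 it was at 34.2, under that library's limit of 54.9. Both values were under the 109 of PTX replicate 1 and the 79.3 and 122 of aPD-L1, while the other 7 libraries held 11.5 to 17.4. The epithelial cadherin Cdh1 was 554 and 469 in NR replicate 2 and R replicate 2, against 144 to 286 elsewhere. Epcam did not follow, at 5910 and 6235 there against 6589 to 9031 in the other libraries outside aPD-L1. The sum of the 6 epithelial genes on the panel was 9205 and 8722, within the 6770 to 11720 of the other libraries. The part of these cells in the Cd14 values was not tested.

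Trem2, a lipid-sensing receptor that signals through the adaptor TYROBP and marks lipid-associated tumour macrophages, was among the most even of the markers, with a ratio of highest to lowest library of 2.04. Its scaled counts were 100 and 66.4 in PTX, 78.4 and 100 in PLX+PTX, 85.0, 49.2 and 69.9 in R, 67.9, 53.8 and 62.0 in NR, and 63.4 and 56.5 in aPD-L1. PTX and PLX+PTX overlapped, and the log2 difference between them was 0.10 (95% interval -0.66 to 0.85). NR and aPD-L1 lay under both PLX+PTX libraries in every replicate.

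The activating Fc receptors Fcgr1 and Fcgr4 did not pass the test in any comparison. Fcgr1, the high-affinity IgG receptor, was 65.2 and 49.6 in PTX, 68.1 and 82.3 in PLX+PTX, 56.3, 25.7 and 63.7 in R, 63.4, 23.1 and 56.7 in NR, and 43.3 and 25.1 in aPD-L1. Both PLX+PTX libraries lay above both PTX libraries, with a log2 difference of 0.39 (95% interval -0.70 to 1.47, adjusted p 0.996). From the deposited log2 values this difference was -0.011. Fcgr4, a mouse receptor for IgG found on monocytes, macrophages and neutrophils, was 32 and 27.2 in PTX, 43.3 and 35.9 in PLX+PTX, 35.3, 21.4 and 39.7 in R, 26.6, 24.8 and 22.7 in NR, and 37.5 and 31.4 in aPD-L1. Here too PLX+PTX lay above PTX in each library, with a log2 difference of 0.41 (95% interval -0.29 to 1.11, adjusted p 0.996), although several values were within a few counts of the limit. The difference between these log2 values and those of Ms4a4a and Mrc1 was not tested. Among 9 other genes of Fc receptors and their signalling on the panel, 7 were tested and 0 were called in any comparison; the median log2 difference for PLX+PTX against PTX was 0.06, the activating receptor Fcgr3 had one of -0.15 and the inhibitory receptor Fcgr2b one of -0.56 (adjusted p 0.996 for both). Fc receptor genes resemble each other in sequence, and the probe sequences were not used here.

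Over the 10 markers, PLX+PTX against PTX gave a median log2 difference of -0.19, with 7 below 0, against 0.03 over all 615 genes. Cd163, Cd14 and Ms4a4a were lower in both PLX+PTX libraries than in both PTX libraries, and 16.3 percent of all genes were so. Fcgr1 and Fcgr4 were higher in both, as were 18.9 percent of all genes. The mean of the 4 PLX groups against PTX gave a median of -0.58, with 9 of 10 below 0, against -0.01 over all genes. These medians depended on single libraries. PTX replicate 1 was the highest of all 12 for 6 of the 10 markers. Without it the medians were 0.18 (3 of 10 below 0) and -0.13 (7 of 10 below 0), and in the second comparison Mrc1 was at -0.22 and Cd163 at -0.28. When the 3 shallow libraries were left out as well, which removes the aPD-L1 group, the second median was -0.02. Without PTX replicate 2 the medians were -0.52 and -0.96. Leaving out PLX+PTX replicate 1 turned the median for PLX+PTX against PTX to 0.09, and leaving out PLX+PTX replicate 2 gave -0.55.

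**Figure D2:**
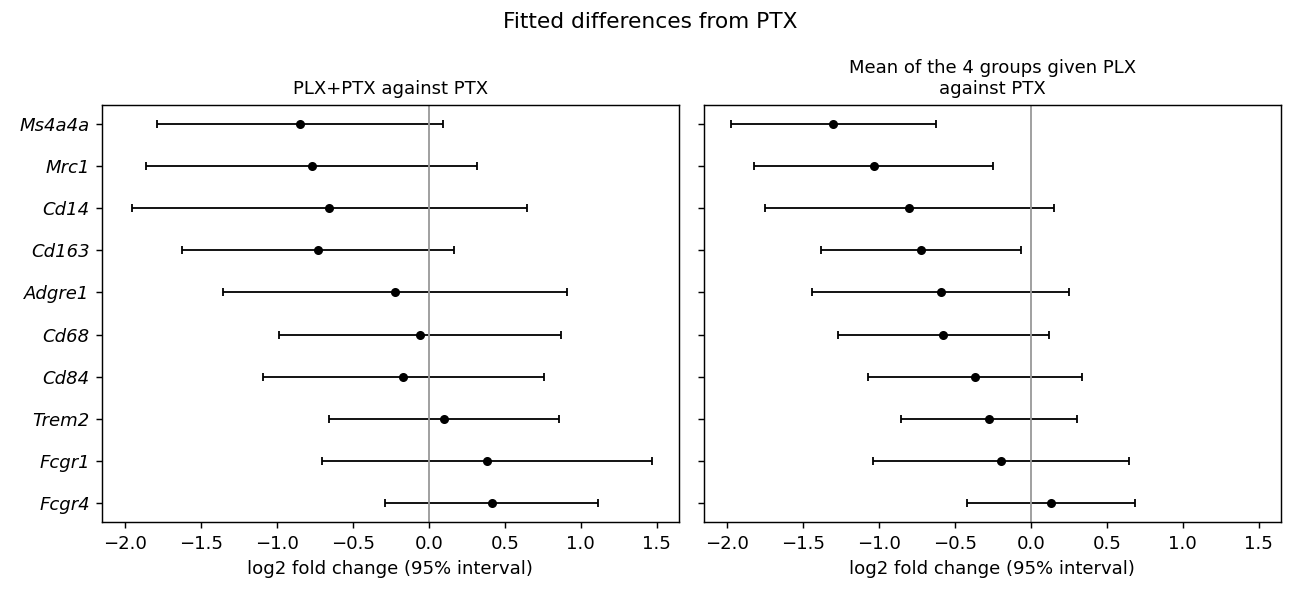
Log2 fold changes of the 10 markers (points) with 95% intervals (bars) from the edgeR fit, for PLX+PTX against PTX and for the mean of the 4 groups given PLX against PTX; the grey line is no difference. On the right the intervals of Ms4a4a, Mrc1 and Cd163 lie under 0, though their adjusted p-values are 0.183, 0.465 and 0.537.

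A list of 15 other macrophage and monocyte genes on the panel, 13 of them tested, was set beside the markers. Its median log2 difference was -0.16 for PLX+PTX against PTX (9 of 13 below 0) and -0.46 for the 4 PLX groups against PTX (12 of 13 below 0), and 0 were called in either. Those of smallest p in the second comparison were Axl, a receptor for dying cells, at -0.72 (adjusted p 0.503), and Csf1r. Both C1q genes measured, which encode complement subunits made largely by macrophages, were below PTX as well: C1qb at -0.96 (adjusted p 0.633) and C1qa at -0.76 (adjusted p 0.816). Here too the PTX libraries differed. The summed scaled counts of the 15 genes were 10679 and 6841 in PTX. PTX replicate 2 lay under PLX+PTX replicate 2 (11228), R replicate 1 (9305) and R replicate 3 (7452), and above the other PLX libraries. The C1q sums were 2224 and 1224 in PTX, and 1036 and 1905 in PLX+PTX. Of 9 tested genes of monocyte recruitment, 6 were below 0 for the 4 PLX groups against PTX and 3 above, with a median of -0.33 and 0 called. The chemokines Ccl8 and Ccl7, which attract monocytes, had the smallest p of that list, at -1.67 and -1.45 (adjusted p 0.200 and 0.205). Ccl7 was above the limit in only 2 of 12 libraries.

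R against NR asked whether the markers differ between tumours marked R and NR under the same anti-PD-1 treatment. On the housekeeping scale 0 of 10 markers had separated groups, in either direction, against 2.11 percent of all genes with every R library below NR and 11.5 percent with every R library above. The median log2 difference was 0.09, against 0.11 over all genes. Its sign depended on the processing. The median was -0.03 with trimmed-mean (TMM) scaling. With the negative-control mean subtracted it was -0.23 (8 of 10 below 0), against -0.14 over all genes. It also moved with single libraries, from 0.0062 without R replicate 1 to 0.28 without R replicate 2. The smallest p-values were those of Ms4a4a, at 0.58 (SE 0.37, adjusted p 0.819), and Fcgr4, at 0.42 (SE 0.28, adjusted p 0.829). Fcgr4 came to -0.07 when the negative-control mean was subtracted first, and R replicate 2 was under the limit for both genes. For Adgre1 the fitted difference was 0.00, yet its 95% interval ran from -1.14 to 1.14, so a doubling in either direction was within reach of the data.

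Dividing each count by the Cd68 count of the same library needs no scaling factor and shows how the markers moved relative to one another. The percentages depend on each probe and are compared only across libraries. For Ms4a4a they were 53.9 and 49.3 percent of Cd68 in PTX, 30.5 and 30.1 in PLX+PTX, 45.3, 52.9 and 40.2 in R, 33.1, 26.5 and 21.8 in NR, and 30.4 and 23.9 in aPD-L1. R thus lay above NR without overlap, and the Ms4a4a counts of R replicate 2 and of both aPD-L1 libraries were under their detection limit. Fcgr4 was 25, 29.4 and 20.1 percent of Cd68 in R and 16.9, 19.7 and 13.1 in NR, again without overlap. These were 2 of the 9 markers set against Cd68, beside 4.89 percent of the other genes with every R library above NR. In R replicate 2 the raw Cd68 count was 34, which makes every ratio of that library uncertain. Mrc1 was 106 percent of Cd68 there, on a raw count of 36, and 33.8 and 22.8 in the other R libraries. Its scaled count was also higher there, at 77 against 47.7 and 44.9. The source of this high ratio was not tested. Fcgr1 was 20.6 and 28.8 percent of Cd68 in PTX and 35.3 and 29.8 in PLX+PTX, so its ratio was higher in both PLX+PTX libraries while that of Ms4a4a was lower in both. No test was made on these ratios.

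**Figure D3:**
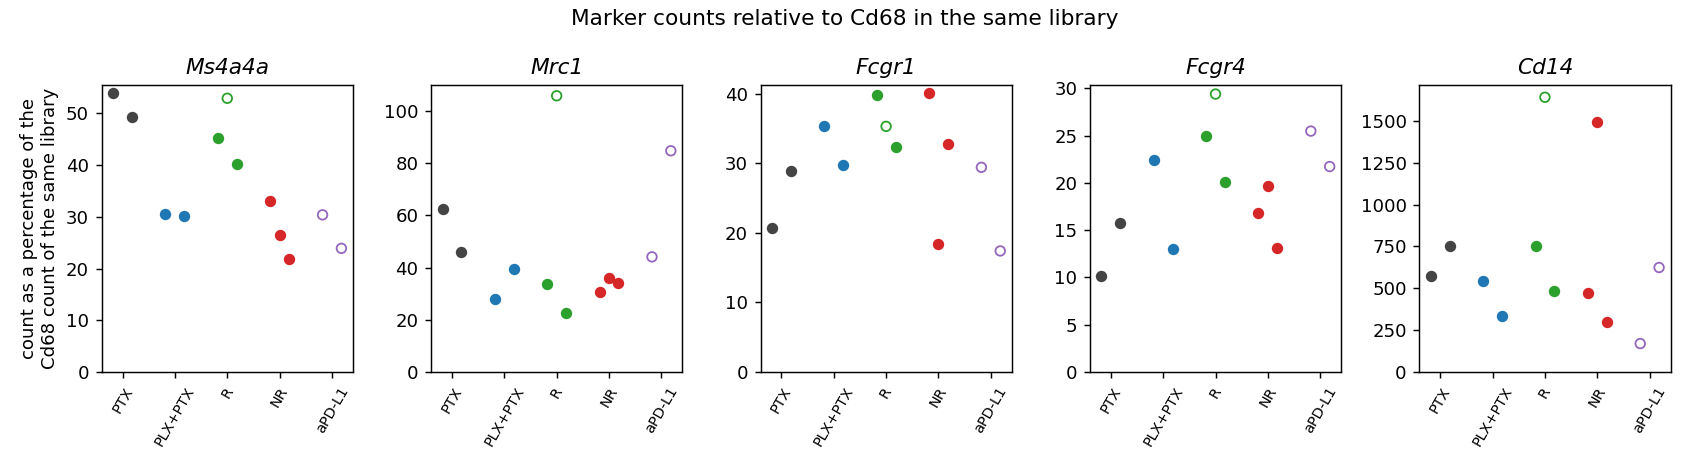
Counts of 5 markers as a percentage of the Cd68 count in the same library (linear axis from 0), by group, with open points for the 3 libraries of low total. Ms4a4a is 40.2 to 52.9 percent in R and 21.8 to 33.1 percent in NR, and the highest Cd14 ratios are those of R replicate 2 and NR replicate 2.

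Against PLX+PTX, 9 of 10 markers had a negative log2 difference in R (median -0.36) and 9 of 10 in NR (median -0.59), while the medians over all genes were -0.07 and -0.18. Fcgr1 was the marker whose R libraries all lay below PLX+PTX, against 9.43 percent of all genes, and 0 markers lay above, against 6.18 percent. Fcgr1 in R had a log2 fold change of -0.59 (SE 0.46, adjusted p 0.979). In NR, 6 of 10 markers (Cd68, Cd163, Trem2, Ms4a4a, Fcgr1 and Fcgr4) lay below PLX+PTX in every library, against 18.4 percent of all genes, and 0 lay above, against 2.76 percent. No Cd163 value of NR was above the detection limit, and neither was Fcgr1 in NR replicate 2. Fcgr4 in NR was at -0.68 (SE 0.30, adjusted p 0.929) and Ms4a4a at -0.79 (SE 0.40, adjusted p 0.929). Both comparisons share the same 2 PLX+PTX libraries, and the medians depended on them. Without PLX+PTX replicate 2 the median was -0.097 in R, with 6 of 10 below 0, and -0.35 in NR. Without PLX+PTX replicate 1 it was -0.59 in R, and without R replicate 2 it was -0.20. The processing moved both medians too. With TMM scaling they were -0.28 in R and -0.39 in NR, against -0.001 and 0.03 over all genes. The deposited log2 values gave -0.33 and -0.25, against -0.05 and 0.04. Subtracting the negative-control mean gave -0.87 and -0.70, against -0.27 and -0.12.

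aPD-L1 against PLX+PTX gave a median of -0.58 over the markers, with 8 of 10 below 0, against -0.02 over all genes. Without PLX+PTX replicate 2 the median was -0.34, with 7 of 10 below 0. Cd68, Cd14, Trem2, Ms4a4a and Fcgr1 were below PLX+PTX in both libraries, as were 21.3 percent of all genes, and Cd163 was above in both, as were 23.1 percent. The smallest p-values were those of Fcgr1, at -1.08 (SE 0.54, adjusted p 0.363), and Ms4a4a, at -0.82 (SE 0.47, adjusted p 0.445). All 4 values of these genes in aPD-L1 were under the detection limit. Scaling on the library total instead moved the median of all genes to 0.40 and that of the markers to -0.12. Set against the average of the R and NR groups, Cd163 in aPD-L1 was at 0.96 (SE 0.37, adjusted p 0.178) and Mrc1 at 0.78 (SE 0.42, adjusted p 0.334). The median over the markers was -0.05, and with single libraries left out it ran from -0.17 without R replicate 2 to 0.05 without R replicate 3. It moved more with the processing. Library-total scaling gave 0.25 (2 of 10 below 0), against 0.36 over all genes. Subtracting the negative-control mean gave -0.56 (8 of 10 below 0), against -0.16 over all genes. Library-total scaling called Cd163 (1.20, adjusted p 0.0335), but neither the R and NR libraries nor the aPD-L1 libraries held a Cd163 value above the limit. With the authors' deposited log2 values and limma, Cd14 was called in its place, a marker named after its values were seen (log2 difference -1.46, adjusted p 0.0265), against -0.89 (adjusted p 0.374) in the counts.

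The likeness of the markers to each other was read as Spearman's rho over the 12 libraries, as a description, since the libraries share depth and scaling. The 45 pairs ran from -0.28 to 0.87 with a median of 0.30. Cd68 and Fcgr1 (0.87), Trem2 and Fcgr1 (0.85), and Trem2 and Ms4a4a (0.83) were the closest, and Cd68, Adgre1, Fcgr1, Trem2, Ms4a4a and Cd84 were all related at 0.52 or above. Mrc1 and Cd163 were related at 0.73, and Cd14 had a rho of -0.26 to 0.30 with the others. The order changed in the 9 deeper libraries. There Mrc1 and Cd163 were at 0.55, under Mrc1 with Cd68 or Ms4a4a (0.58 each), Cd163 was at 0.67 with both Cd14 and Ms4a4a, and Ms4a4a and Fcgr1 were at 0.40. Cd68 and Fcgr1 (0.83), Trem2 and Fcgr1 (0.73), and Trem2 and Ms4a4a (0.70) were each somewhat lower than over all 12. Of 396 other genes detected in at least 10 libraries, those most like the mean of the 6 markers so detected (Cd68, Mrc1, Adgre1, Cd14, Trem2 and Cd84) were Csf1r (0.94), the chemokine gene Ccl8 (0.89), the pan-leukocyte phosphatase gene Ptprc (0.89), the chemokine gene Cxcl16 (0.87) and the inhibitory Fc receptor gene Fcgr2b (0.87). In the 9 deeper libraries the rho of these 5 genes was 0.88, 0.82, 0.83, 0.77 and 0.88.

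**Figure D4:**
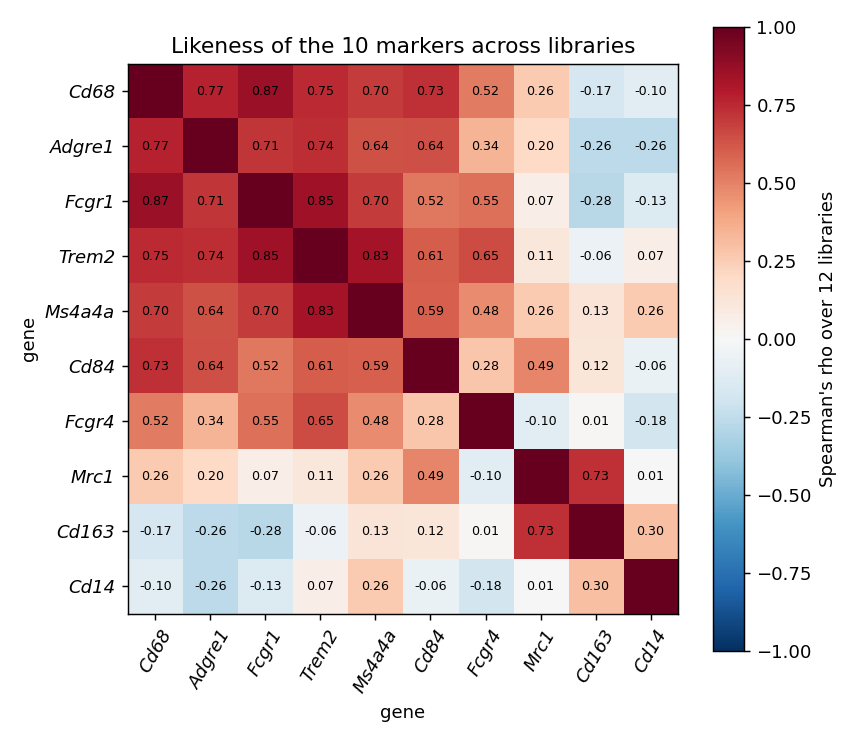
Spearman's rho between the scaled counts of each pair of markers over 12 libraries, from -1 (blue) to 1 (red), with the value in each cell. A block of 6 genes from Cd68 to Cd84 holds values of 0.52 to 0.87, Mrc1 and Cd163 are at 0.73, and Cd14 lies between -0.26 and 0.30. In the 9 deeper libraries, not drawn, Mrc1 and Cd163 are at 0.55, Cd163 and Cd14 at 0.67, and Ms4a4a and Fcgr1 at 0.40.

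Trem2 and the markers with the highest rho to it over the 12 libraries, Fcgr1 and Ms4a4a, are shown with their promoters because macrophage genes are often bound by the ETS factor PU.1, whose purine-rich site has the core GAGGAA. The windows cover 250 bases before to 50 bases after the annotated start in RefSeq, mouse build GRCm38.p6, and are printed 5′ to 3′ on the gene's strand, with GAGGAA or its reverse complement TTCCTC in capitals. Trem2 lies at chr17:48346151-48346450 on the plus strand, Fcgr1 at chr3:96293920-96294219 on the minus strand, and Ms4a4a at chr19:11375238-11375537 on the plus strand.
Trem2: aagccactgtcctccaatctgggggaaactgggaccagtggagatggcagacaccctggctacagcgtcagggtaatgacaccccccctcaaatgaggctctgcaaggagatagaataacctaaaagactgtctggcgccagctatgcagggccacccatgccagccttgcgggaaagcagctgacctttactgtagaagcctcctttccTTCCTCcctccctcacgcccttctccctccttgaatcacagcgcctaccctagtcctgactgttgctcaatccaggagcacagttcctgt
Fcgr1: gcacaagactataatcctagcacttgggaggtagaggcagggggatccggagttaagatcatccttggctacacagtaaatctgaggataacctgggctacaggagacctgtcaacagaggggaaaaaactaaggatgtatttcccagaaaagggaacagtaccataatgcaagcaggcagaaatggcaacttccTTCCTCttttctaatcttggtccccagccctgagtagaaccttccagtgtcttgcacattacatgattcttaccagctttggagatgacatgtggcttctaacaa
Ms4a4a: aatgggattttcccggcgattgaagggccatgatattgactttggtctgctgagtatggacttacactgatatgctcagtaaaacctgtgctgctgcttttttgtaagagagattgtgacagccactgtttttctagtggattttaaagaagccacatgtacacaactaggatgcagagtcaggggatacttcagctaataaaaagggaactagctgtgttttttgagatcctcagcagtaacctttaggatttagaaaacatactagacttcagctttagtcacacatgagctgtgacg

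In these windows the reverse complement began 40 bases before the start of Trem2 and 55 bases before that of Fcgr1, and neither orientation was found in Ms4a4a. Windows were at hand for 8 of the 10 markers, all but Adgre1 and Cd14. GAGGAA on either strand was in 6 of the 8 (Cd68, Mrc1, Trem2, Cd84, Fcgr1 and Fcgr4) and not in those of Cd163 and Ms4a4a, against 28.3 percent of 32851 mouse promoter windows of the same length. Mrc1 held 3 matches, 180, 167 and 35 bases before its start. A match describes letters only; binding was not measured.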

How the data were processed

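RNA of 12 tumour samples was counted with the nCounter panel after cDNA synthesis and multiplex target enrichment, per the labels' protocols. The deposited counts are whole-number raw counts of 784 probes (750 endogenous, 20 housekeeping, 6 positive and 8 negative controls, per the file headers). The authors' deposited log2 values served as an alternative; how they were normalized is not stated in the sources used here, and DESeq2 and limma are named in the submitters' processing notes with no role.

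Raw counts were scaled on the geometric mean of the housekeeping probes. Endogenous probes with at least 20 counts in at least 2 libraries (615) entered one fit of 5 group means over all 12 libraries with edgeR 4.0.16 (R 4.3.3), glmQLFit and glmQLFTest, with 7 residual degrees of freedom and Benjamini-Hochberg adjustment over the 615 genes at 0.05. Standard errors were derived from the F statistic. The alternatives used TMM and library-total scaling, DESeq2 1.42.0, limma 3.58.1 (voom, and on the deposited values), other filters, left-out libraries and subtraction of the negative controls. Likeness was computed on log2(scaled count + 1). The fit was tested on simulated counts with 200 of the 615 genes changed. Depending on the comparison, 24 to 56.8 percent of 2-fold changes were recovered, and 81.6 to 98.8 percent of 4-fold changes. The markers and the gene lists around them were chosen with earlier results of these data known. Full statistics were printed for markers with an unadjusted p under 0.05, or else for the 2 of smallest p in each comparison, and list genes named are those of smallest p or with a role beside a marker. Counting precision is limited near the detection limit, and no batch is given in the labels. The groups came from the sample titles. All 10 marker symbols were found in a RefSeq gene table.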

Additional observations from a re-analysis of the deposited data

How the results depend on the processing

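No paired analysis was possible because the labels carry no replicate numbers: they were given in accession order and pair no samples. Over the 15 marker values given with full statistics, 325 alternative values were computed: 322 kept their direction and side of the threshold, 1 reversed and 2 moved past the threshold. Fcgr4 in R against NR reversed to -0.069 with the negative-control mean subtracted, an alternative chosen after seeing the data, as was leaving out PTX replicate 1 together with the 3 shallow libraries. Cd163 in aPD-L1 against the average of the R and NR groups passed with library-total scaling (1.20), and Ms4a4a in the 4 PLX groups against PTX passed without PTX replicate 2 (-1.71). The number of markers called was 1 in aPD-L1 against the average of the R and NR groups with library-total scaling (Cd163) and 1 with the deposited log2 values (Cd14), and for the 4 PLX groups against PTX it ran from 0 to 1 over the left-out replicates; under all other alternatives it was 0. The causes were not tested.

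Genes called over the whole panel moved more. For aPD-L1 against PLX+PTX the 14 calls became 43 with library-total scaling, 34 with DESeq2, 24 with the compared groups alone, 3 without PLX+PTX replicate 1, and 0 without PLX+PTX replicate 2, with the deposited values, with negative controls subtracted or with genes above the limit in 10 or more libraries. For aPD-L1 against the average of the R and NR groups the 35 became 69, 53 and 54 with library-total scaling, DESeq2 and the deposited values, 55 with no filter, 4 with the strict filter, 15 with negative controls subtracted, 53 without aPD-L1 replicate 1 and 16 without replicate 2. Over the 4 PLX groups against PTX, 7 genes were called without PTX replicate 2 and 1 with the deposited values, and R against NR had 3 with the deposited values. The number of markers with their highest group mean in PTX was 6, and 5, 7 and 9 with library-total scaling, TMM and the deposited values. Both aPD-L1 comparisons were not run without the 3 shallow libraries, which hold that whole group. Groups of 2 or 3 libraries limit every marker, and so do counts near background for most. Cd68, Mrc1 and Cd14 were above the limit in all 12 libraries. Even so, the raw count of Mrc1 in R replicate 3 was 43 against a limit of 35.6. That of Cd68 in R replicate 2 was 34 against 25.7.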
